A study of Rattus norvegicus with 12 samples.

Results

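The response of cultured rat retinal ganglion cells to endothelin-1 (ET-1) was read from 6 of the 12 arrays of the study, the 3 labelled ET-1 and the 3 labelled untreated. The cells were isolated from Sprague-Dawley rat pups of postnatal days 4 to 6 by panning on an antibody to Thy-1.1, which ganglion cells carry on their surface. All cultures were grown for 7 days without serum, with 50 ng/mL brain-derived neurotrophic factor, 10 ng/mL ciliary neurotrophic factor and 5 ng/mL forskolin, and all then went overnight without neurotrophic factors. The ET-1 cultures next received 100 nM ET-1 for 24 h. The untreated cultures received no endothelin, and the sample descriptions call the same group vehicle-treated. The other 6 arrays carry ET-2 and ET-3 at the same dose and time, and they also entered the estimate of spread. Each group has 3 arrays, numbered 1 to 3 as biological replicates, and an ET-1 array was set against the untreated array of its own number. The labels do not say what a number stands for or how many pups a culture pooled.

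Endothelins are short vasoactive peptides that are cut from larger precursors by endothelin-converting enzymes and act on a pair of G protein-coupled receptors, the A and the B receptor. ET-1 binds both receptors with high affinity, and many cells answer it with phospholipase C activation and a rise in calcium. In the eye, ET-1 is known as a constrictor of retinal and optic nerve head vessels, and raised ET-1 has been linked to glaucoma, the disease in which ganglion cells are lost.

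Expression was measured as the signal of a probe set, a group of short probes to 1 transcript, on Affymetrix Rat Genome 230 2.0 arrays. Array medians ran from 136 to 181 and trimmed means from 496.7 to 498.3 over the 12 arrays. Transcripts of a ganglion cell identity were strong on every array. The 17 measured ganglion cell markers summed to 104561, 124632 and 149041 on ET-1 arrays 1 to 3, against 104041, 136480 and 146793 on untreated arrays 1 to 3. The cultures were not free of other cells. The 11 fibroblast markers with a probe set summed to 57563, 13914 and 9926 on ET-1 arrays, against 59939, 13908 and 8842 on untreated arrays, so replicate 1 of both groups held the most fibroblast transcript. In bulk samples such as these, fewer cells of a type and less RNA per cell cannot be told apart.

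**Figure D1:**
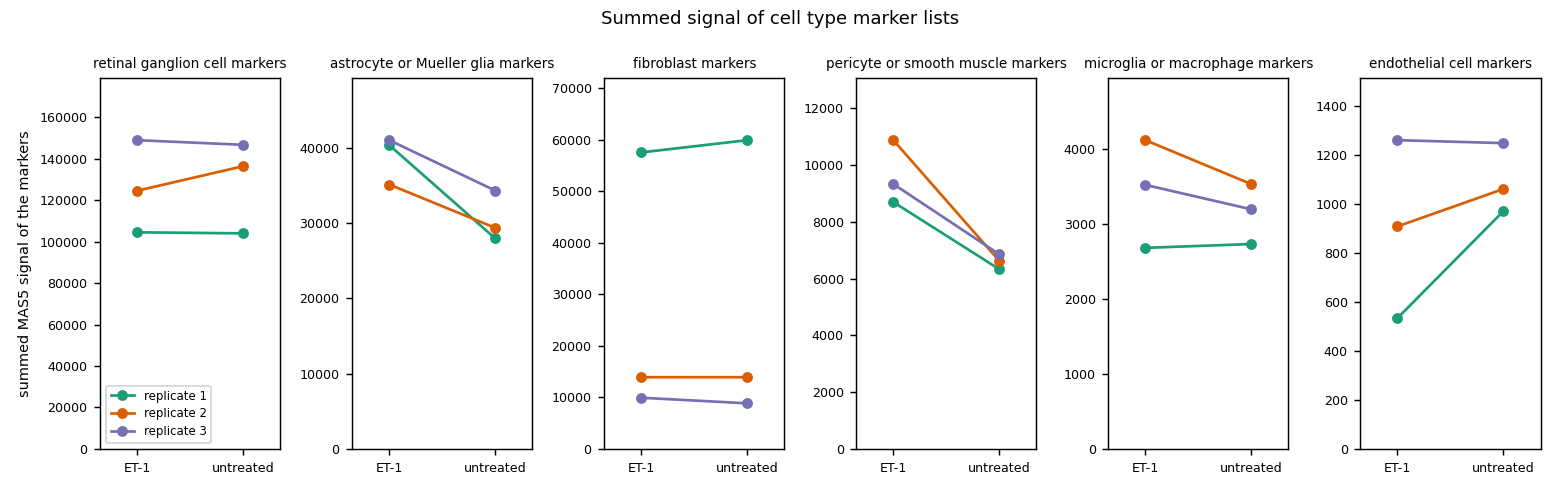
Summed signal (vertical axis, linear, from 0) of the markers with a probe set of 6 cell types on the ET-1 and untreated arrays, with a line joining arrays of 1 replicate number. Within each group, ganglion cell and fibroblast sums span more over the 3 replicate numbers than they differ between ET-1 and untreated of any 1 number. The ganglion cell sum of replicate 2 is lower with ET-1. The sums of the glial and of the pericyte or smooth muscle lists are higher on all 3 ET-1 arrays than on the untreated array of the same number.

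Among the probe sets tested, the changes that passed with ET-1 were mostly increases. Of 15521 probe sets tested, 268 (1.73%) passed an adjusted p of 0.05 in limma with the replicate number as a block, 234 (1.51%) of them higher with ET-1 and 34 (0.219%) lower. The signal filter took the mean over all 12 arrays, most of which carry an endothelin. A gene could thus enter through its treated arrays, while a gene lowered by treatment could drop out untested. The balance of increases and decreases holds only within that filter. The fit used all 12 arrays as well. Each SE given below comes from the variance of that fit and is not the spread of the 3 pair differences, which can be wider. At the level of genes, 173 of 9425 (1.84%) rose and 18 (0.191%) fell. In either direction 2.03% passed, which is the share to set beside every list count below. The median log2 difference, ET-1 minus untreated, was 0.75 among genes that rose and -0.34 among genes that fell, and -0.01 over all 9425 genes. At least a 2-fold change was reached by 42 of the genes that rose and 4 of those that fell. All 191 moved the same way in the 3 replicate pairs. The blocked fit favours such genes, so this count is not separate support for the calls. The 3 ET-1 signals did not overlap the 3 untreated signals in 61 of the 173 and in 7 of the 18. Over all genes, 2.79% were higher and 2.5% lower with no overlap.

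These calls rest on comparing arrays of the same number. Without the block no probe set passed in limma (237 at an unadjusted p under 0.05), and the median residual SD was 0.25 on the log2 scale, against 0.127 with the block. They also rest on replicate 2: with that number left out of all groups 23 probe sets passed, against 95 without replicate 1 and 256 without replicate 3. With the ET-1 and untreated arrays alone, 78 passed. Of the 16 alternatives with the block, the stricter filter on signal did not test Thbd. Genes that kept their call in every alternative with the block that tested them numbered 13. They were Il1rl1, Esm1, S100a6, Axl, Ccn2, Myof, Vim, Gja1, Ltbp2, Col12a1 and Cnn2 among the genes that rose, and Thbd and Crym among those that fell.

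**Figure D2:**
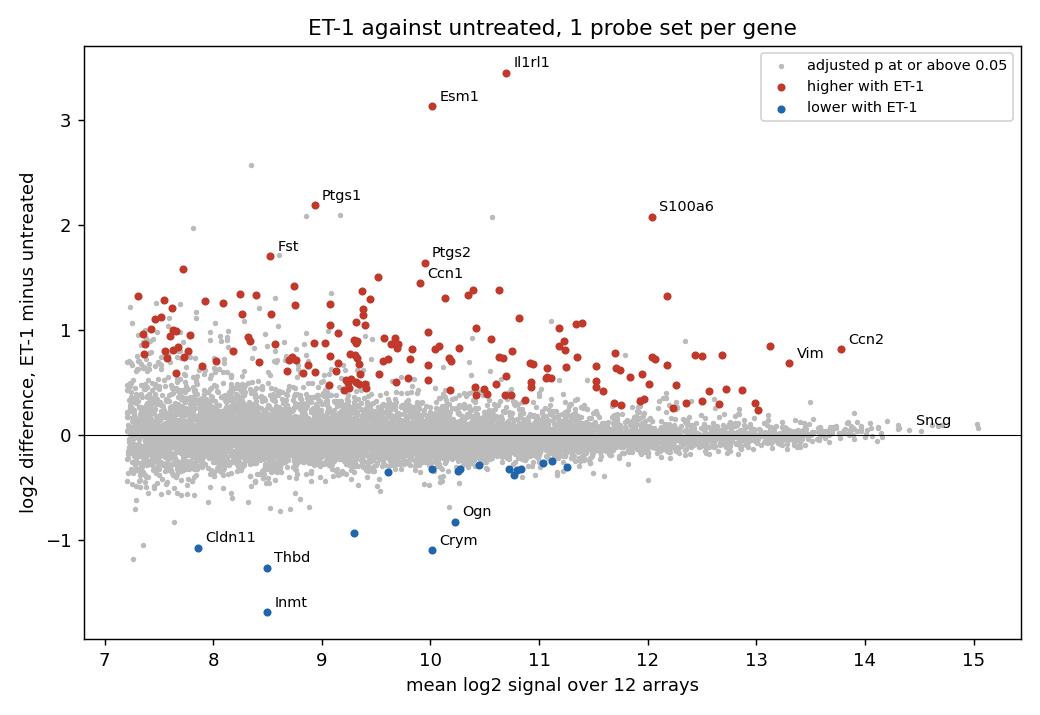
Log2 difference, ET-1 minus untreated (vertical axis), against mean log2 signal over 12 arrays (horizontal axis), with 1 point per gene. Red points mark the 173 genes that rose and blue points the 18 that fell at an adjusted p under 0.05. The genes that rose reach 3.45 (Il1rl1) and the genes that fell reach -1.69 (Inmt).

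Of the endothelin system itself, 3 of the listed genes gave enough signal to be tested, and none of them passed. Ece1, the principal converting enzyme, had signals of 657, 538 and 544 on ET-1 arrays, against 518, 424 and 449 on untreated arrays. The groups did not overlap, with a log2 difference of 0.32 ± 0.08 (SE, n = 3 pairs) and an adjusted p of 0.0845. Ece2, a related converting enzyme, differed by -0.15 ± 0.17 and Ecel1, an endothelin-converting enzyme-like protease, by -0.12 ± 0.07 (SE, n = 3 pairs). Edn1, the gene of the ET-1 precursor, lay under the signal filter, at 110, 127 and 124 on ET-1 arrays and 59.4, 65.2 and 108 on untreated arrays. The endothelin receptor genes were not analysed here.

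The largest increase was in Il1rl1, which encodes ST2, the receptor of interleukin-33. Its signal was 11567, 1929.7 and 1879.8 on ET-1 arrays, against 656, 246 and 199 on untreated arrays. Every ET-1 array lay above every untreated array, and replicate 1 was the highest within each group. The fold change was 10.9 (log2 difference 3.45 ± 0.31, SE, n = 3 pairs; adjusted p = 0.000237), and the adjusted p was 0.00369 without replicate 2. Il33, the gene of its ligand, lay under the filter, with 511, 142 and 91.8 on ET-1 arrays and 138, 31.7 and 62.5 on untreated arrays.

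Esm1, which encodes endocan, a secreted proteoglycan known from endothelial cells, was next. It had 5003, 908 and 1424 on ET-1 arrays, against 381, 102 and 247 on untreated arrays. The groups did not overlap, and the fold change was 8.77 (3.13 ± 0.24, SE, n = 3 pairs; adjusted p = 0.00022). Other genes of the angiogenic and endothelial list did not follow it. Of 7 measured, 1 rose and none fell, with a list median of -0.23. Kdr, a receptor of vascular endothelial growth factor, had 136, 380.1 and 413 on ET-1 arrays, against 288, 513 and 546 on untreated arrays (adjusted p = 0.0845). Of the 10 endothelial markers with a probe set, 2 passed the signal filter, and those 10 summed to 534, 908 and 1261 on ET-1 arrays and 971, 1061 and 1249 on untreated arrays.

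**Figure D3:**
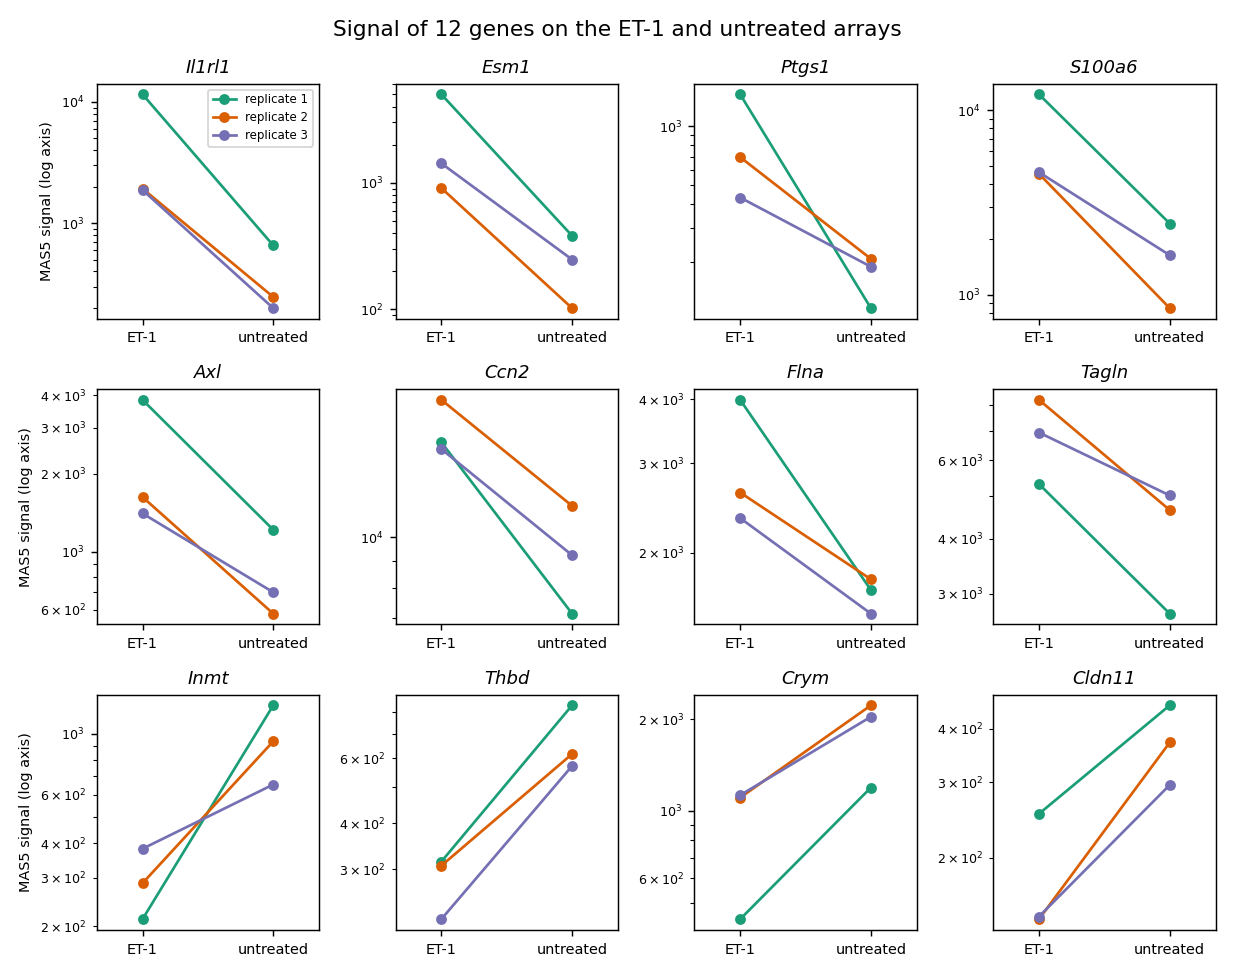
Signal on a log axis for 12 genes on the ET-1 and untreated arrays, with a line joining arrays of 1 replicate number. The upper 8 panels show genes that rose in all 3 pairs and the lower 4 show genes that fell in all 3 pairs; in each of these 12 genes the ET-1 and untreated signals do not overlap.

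Both cyclooxygenases, the enzymes that start prostaglandin synthesis, rose. Ptgs1, the constitutive form in many tissues, had 1463, 696 and 431 on ET-1 arrays, against 116, 209 and 190.1 on untreated arrays. The groups did not overlap, and replicate 1 showed the widest gap. The log2 difference was 2.19 ± 0.42 (SE, n = 3 pairs; adjusted p = 0.0207, and 0.175 without replicate 2). Ptgs2, the inducible form, had 3323, 1222 and 628 on ET-1 arrays, against 878, 287 and 333 on untreated arrays. It was higher in each pair, though ET-1 array 3 lay below untreated array 1 (1.64 ± 0.23, SE, n = 3 pairs; adjusted p = 0.00359, and 0.0813 without replicate 2). Ptges, the inducible prostaglandin E synthase, had 2193, 251 and 286 on ET-1 arrays and 216, 159 and 130.3 on untreated arrays, and did not pass (adjusted p = 0.0774). The list held 8 measured genes, of which 2 rose and none fell.

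Genes of contractile and stress fibre proteins moved together. Of 18 measured, 14 rose, none fell and all 18 had a difference above 0, against 45.6% of all genes above 0. A shared direction was not particular to the contractile list. All 17 measured DNA replication genes, all 12 NF-kB genes and 18 of 19 S100 and annexin genes also lay above 0. The median of the contractile list was 0.57, and in replicate pairs 1, 2 and 3 it was 0.72, 0.47 and 0.48. The changes were small in fold. Flna, filamin A, a crosslinker of actin filaments, had 3991, 2626 and 2339 on ET-1 arrays, against 1690.3, 1774 and 1519 on untreated arrays, with no overlap (0.81 ± 0.14, SE, n = 3 pairs; adjusted p = 0.0088). Tagln, transgelin or SM22 alpha, an actin-binding protein of smooth muscle, had 5308, 8217 and 6934 on ET-1 arrays, against 2708, 4637 and 5003 on untreated arrays. These groups did not overlap either (0.76 ± 0.11, SE, n = 3 pairs; adjusted p = 0.0047). Tpm2, a tropomyosin, rose by 0.75 ± 0.14, Myh9, the heavy chain of non-muscle myosin IIA, by 0.68 ± 0.09 and Cald1, caldesmon, by 0.67 ± 0.10 (SE, n = 3 pairs). Acta2, smooth muscle alpha-actin, had 761, 1075 and 1127 on ET-1 arrays, against 544, 687 and 793 on untreated arrays (0.55 ± 0.08, SE, n = 3 pairs; adjusted p = 0.00359). Its highest untreated array exceeded its lowest ET-1 array, although each pair differed the same way. Without replicate 2, 1 of the 18 passed, and without replicate 1, 8 did. The gene that passed without replicate 2 was Cnn2, calponin 2, with 6180.2, 4131 and 2449 on ET-1 arrays and 3679, 2976 and 1569.6 on untreated arrays.

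Several of these genes also mark pericytes and smooth muscle. The whole marker list of that lineage, 11 genes with a probe set and 7 tested, summed to 8696, 10879 and 9332 on ET-1 arrays, against 6329, 6624 and 6856 on untreated arrays. The 7 markers of the list that are not contractile genes summed to 2382, 1117 and 764 on ET-1 arrays, against 2836, 900 and 604 on untreated arrays, lower in pair 1 and higher in pairs 2 and 3. The fibroblast sums given above differed little within pairs. The part of such cells in the contractile result was not tested.

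Of 15 measured genes of matricellular proteins and known targets of the coactivator YAP, 7 rose and none fell, with a list median of 0.75. Ccn2, connective tissue growth factor, is a secreted protein widely used as a readout of YAP activity. It had 15220.4, 18356 and 14770.5 on ET-1 arrays, against 7141, 11495 and 9244 on untreated arrays. All ET-1 arrays lay above all untreated arrays (0.81 ± 0.08, SE, n = 3 pairs; adjusted p = 0.000559). Ccn1, its relative CYR61, had 2576, 977 and 823 on ET-1 arrays, against 608, 369.7 and 455 on untreated arrays. The groups again did not overlap (1.45 ± 0.23, SE, n = 3 pairs; adjusted p = 0.00616, and 0.137 without replicate 2). Axl, a receptor tyrosine kinase, had 3836, 1625 and 1405 on ET-1 arrays, against 1216, 579 and 699.8 on untreated arrays (1.38 ± 0.13, SE, n = 3 pairs; adjusted p = 0.00024), with no overlap. Cav1, the main protein of caveolae, rose by 1.39 ± 0.19 and Crim1, a membrane protein that binds bone morphogenetic proteins, by 0.89 ± 0.17 (SE, n = 3 pairs). The other members that passed, named after their values were seen, were Ajuba (0.75) and Ccn3 (0.74). Tnc, tenascin C, had a larger mean difference and did not pass: 8145, 2715 and 494 on ET-1 arrays, against 526, 433 and 637 on untreated arrays (adjusted p = 0.127), with pair 3 the other way. Without replicate 2, 2 of the 15 passed, and without replicate 1, 6 did.

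Promoter windows of 4 of these genes are shown because they hold letters that YAP's DNA-binding partners of the TEAD family, or serum response factor (the CArG box), are known to bind. They are RefSeq sequences of build GRCr8 from 250 bases before to 50 after the transcript start, on the minus strand and written 5′ to 3′ in the gene's sense. Ccn2 lies at chr1:22624565-22624864, Acta2 at chr1:241172454-241172753, Ccn1 at chr2:237225640-237225939 and Cnn2 at chr7:10370263-10370562. Capitals mark the TEAD site, GGAATG or CATTCC, in the windows of Ccn2, Acta2 and Ccn1, and the CArG box in the window of Cnn2. Only exact matches to CCWWWWWWGG, with W being A or T, were counted as a CArG box. The Acta2 window also holds ccctatatgg and ccttgtttgg, which each differ from that pattern by a single letter and are not marked.
Ccn2: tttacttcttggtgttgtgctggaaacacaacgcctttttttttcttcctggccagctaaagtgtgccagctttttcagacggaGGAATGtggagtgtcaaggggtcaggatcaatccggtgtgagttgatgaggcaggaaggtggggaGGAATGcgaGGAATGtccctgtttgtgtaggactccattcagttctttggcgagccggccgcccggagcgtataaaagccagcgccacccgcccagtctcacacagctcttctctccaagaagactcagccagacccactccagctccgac
Acta2: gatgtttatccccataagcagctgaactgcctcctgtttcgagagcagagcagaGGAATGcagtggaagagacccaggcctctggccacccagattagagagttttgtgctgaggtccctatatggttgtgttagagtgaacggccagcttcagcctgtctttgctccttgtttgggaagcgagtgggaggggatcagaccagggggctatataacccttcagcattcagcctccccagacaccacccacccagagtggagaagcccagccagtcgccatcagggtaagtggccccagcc
Ccn1: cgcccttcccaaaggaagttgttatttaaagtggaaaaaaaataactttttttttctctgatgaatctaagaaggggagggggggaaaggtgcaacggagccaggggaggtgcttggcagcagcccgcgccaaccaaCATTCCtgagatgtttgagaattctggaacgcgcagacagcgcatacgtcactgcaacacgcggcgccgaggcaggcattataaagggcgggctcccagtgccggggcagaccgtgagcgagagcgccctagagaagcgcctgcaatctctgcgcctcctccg
Cnn2: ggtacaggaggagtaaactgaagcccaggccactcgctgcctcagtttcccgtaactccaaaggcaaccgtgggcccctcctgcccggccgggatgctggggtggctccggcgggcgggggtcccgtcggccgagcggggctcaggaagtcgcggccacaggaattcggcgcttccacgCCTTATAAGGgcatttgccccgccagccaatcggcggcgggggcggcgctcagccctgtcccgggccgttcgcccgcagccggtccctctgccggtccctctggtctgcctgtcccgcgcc

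In Ccn2 the 3 TEAD sites began 166, 101 and 92 bases before the start, in Acta2 the site began 196 bases before it and in Ccn1 113 bases before it. The CArG box of Cnn2 began 71 bases before the start. The motifs and windows were chosen after the values were seen. A TEAD site lay in 5 of 14 windows of the contractile genes that rose, in 3 of 7 windows of the matricellular genes that rose and in 30 of 150 windows of all genes that rose. It lay in 10.8% of the windows of tested genes and in 14.2% of all 33469 RefSeq windows. The CArG box lay in 2.0% of windows of genes that rose and 1.43% of windows of tested genes. The AP-1 site TGANTCA lay in 10.0% of windows of genes that rose and 4.59% of windows of tested genes, and the NF-kB site in 12.7% of windows of genes that rose and 9.85% of windows of tested genes. Over all RefSeq windows the shares were 1.64% for the CArG box, 7.33% for the AP-1 site and 7.51% for the NF-kB site. All 4 motifs were searched on both strands. Such matches describe the letters and are not evidence of binding.

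Calcium-binding S100 proteins, annexins and related membrane proteins rose in part. Of 19 measured, 9 rose and none fell, with a median of 0.43. S100a6, calcyclin, had 12188, 4521 and 4608 on ET-1 arrays, against 2429.6, 845 and 1636 on untreated arrays. No arrays overlapped, and the fold change was 4.23 (2.08 ± 0.18, SE, n = 3 pairs; adjusted p = 0.000237). Myof, myoferlin, a membrane repair protein, had 838, 983 and 639 on ET-1 arrays, against 401, 323 and 376 on untreated arrays (1.14 ± 0.13, SE, n = 3 pairs; adjusted p = 0.00115), also with no overlap. S100a4 rose by 1.02 ± 0.16, S100a11 by 0.76 ± 0.10 and Anxa1, annexin A1, by 0.78 ± 0.15 (SE, n = 3 pairs). Among members at high signal, Anxa2 differed by 0.11 (adjusted p = 0.439) and S100a10 by 0.04 (adjusted p = 0.701). Without replicate 2, 2 of the 19 passed.

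Among the markers of astrocytes and Müller glia, 3 of 7 measured genes rose and none fell. Gfap, Aqp4, Rlbp1, S100b and Aldh1l1, the rest of the list, lay under the signal filter and were not tested. Vim, the intermediate filament vimentin, had 13321, 10930.3 and 10389.5 on ET-1 arrays, against 7759, 6711 and 6977 on untreated arrays, with no overlap (0.69 ± 0.06, SE, n = 3 pairs; adjusted p = 0.000237). Gja1, the gap junction protein connexin 43, had 10311, 1581 and 2203 on ET-1 arrays, against 4556, 617 and 1402 on untreated arrays, so each pair differed while the groups overlapped (1.06 ± 0.13, SE, n = 3 pairs; adjusted p = 0.00143). Clu, clusterin, a secreted chaperone, rose by 0.24 ± 0.05 (SE, n = 3 pairs). The 4 others did not pass: Slc1a3 differed by 0.09, Apoe by 0.02, Dkk3 by -0.01 and Glul, glutamine synthetase, by -0.02, with adjusted p from 0.843 to 0.966. The list of 12 summed to 40387, 35145 and 41042 on ET-1 arrays, against 27978, 29389 and 34340 on untreated arrays. Vim, Clu and Dkk3 made up most of that sum, and whether glial number differed was not tested. Gja1 was highest in replicate 1 of both groups, as the fibroblast sums were, and the part of other cells in these values was not tested.

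**Figure D4:**
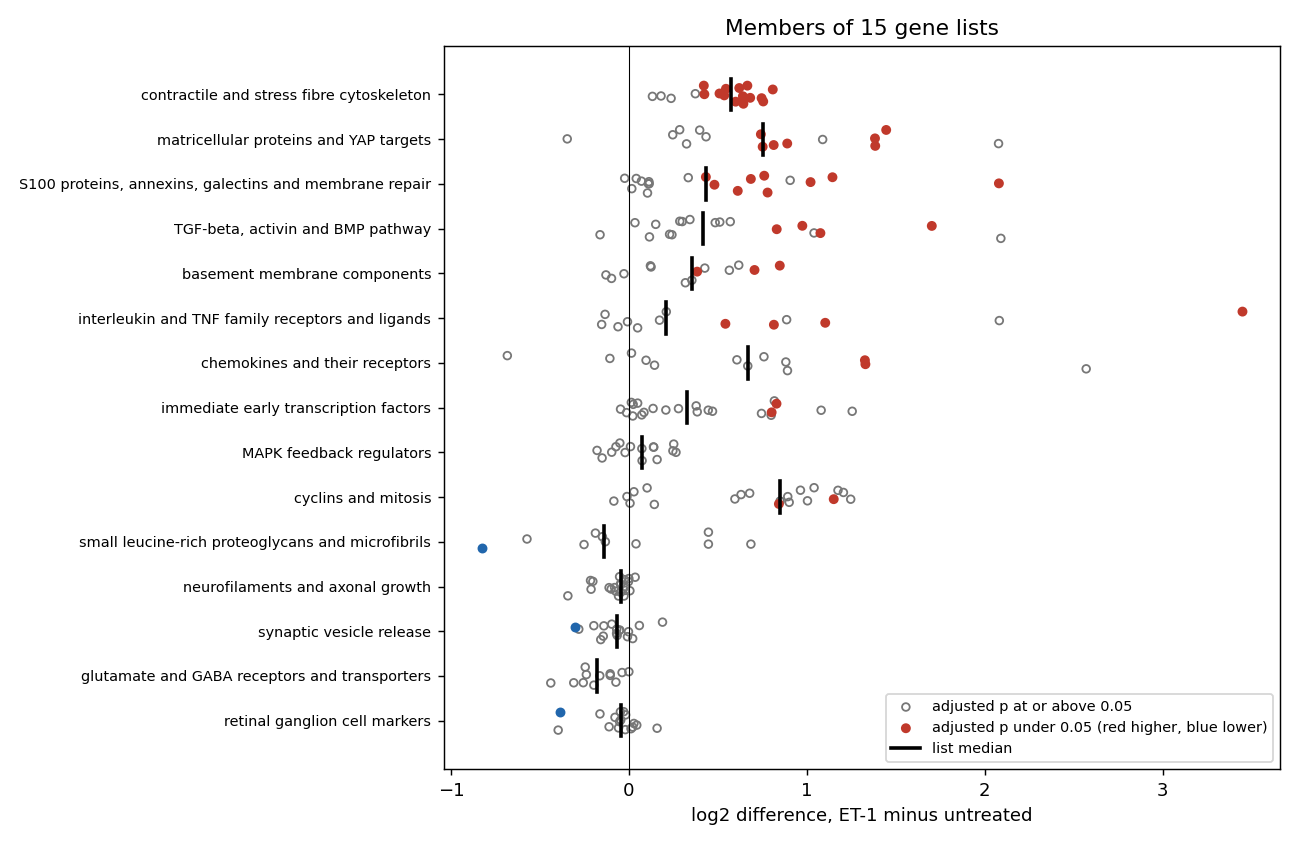
Log2 difference, ET-1 minus untreated (horizontal axis), of the measured members of 15 gene lists, with 1 point per gene and a vertical bar at the list median. Filled points passed an adjusted p of 0.05, red where higher and blue where lower with ET-1. All 18 contractile genes lie to the right of 0, and the neuronal and ganglion cell lists lie close to 0.

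Of the TGF-beta, activin and bone morphogenetic protein pathway, 4 of 18 measured genes rose and none fell, with a median of 0.41. Among the ligands, Tgfb3 had 596, 1046 and 493 on ET-1 arrays, against 369.5, 453 and 242 on untreated arrays, with no overlap (0.98 ± 0.11, SE, n = 3 pairs; adjusted p = 0.00126, and 0.0799 without replicate 2). The latent TGF-beta binding proteins, which hold the inactive ligand in the matrix, rose as Ltbp2 (1.08 ± 0.11) and Ltbp1 (0.83 ± 0.18, SE, n = 3 pairs). Fst, follistatin, which traps activin, had 1867, 255 and 292 on ET-1 arrays, against 288, 119 and 117 on untreated arrays. It was higher in every pair, most in replicate 1 (1.70 ± 0.29, SE, n = 3 pairs; adjusted p = 0.00914). Grem1, gremlin, a trap of bone morphogenetic proteins, had 947, 1307 and 493 on ET-1 arrays and 87.4, 146 and 619 on untreated arrays, with pair 3 the other way (adjusted p = 0.116). Without replicate 2, 1 of the 18 passed.

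Some matrix genes rose as well. Of 13 measured basement membrane genes 3 rose, with a median of 0.35: Col4a1 by 0.85 ± 0.12, Col4a2 by 0.71 ± 0.10, the chains of type IV collagen, and Lamb1, laminin beta 1, by 0.38 ± 0.06 (SE, n = 3 pairs). Of 10 fibrillar and associated collagens 2 rose, Col12a1 by 0.90 ± 0.11 and Col5a2 by 0.58 ± 0.09 (SE, n = 3 pairs). Col1a1, a chain of the fibrillar collagen I, had 6748, 1469 and 1376 on ET-1 arrays, against 7660.3, 1438 and 1004 on untreated arrays, and did not pass (adjusted p = 0.77). Timp1, an inhibitor of metalloproteinases, rose by 1.05 ± 0.17 (SE, n = 3 pairs), as 1 of 19 measured genes of its list. Of 13 integrins and cadherins, 2 rose, Itgb3 by 1.01 ± 0.21 and Itgb1 by 0.47 ± 0.08 (SE, n = 3 pairs). Of the small leucine-rich proteoglycans and microfibril genes none of 10 rose, and 1 fell, Ogn, osteoglycin. Ogn had 2774, 588 and 745 on ET-1 arrays, against 6480.0, 1116 and 934 on untreated arrays (-0.83 ± 0.14, SE, n = 3 pairs; adjusted p = 0.00795).

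Cytokine receptors and chemokines rose in a minority of members. Of 13 measured interleukin and TNF family genes, 4 rose and none fell, with a median of 0.21. Beside Il1rl1 these were Tnfrsf11b, the decoy receptor osteoprotegerin (1.10 ± 0.19), Il1r1, the type 1 receptor of interleukin-1 (0.82 ± 0.11), and Tnfrsf12a, the TWEAK receptor (0.54 ± 0.11, SE, n = 3 pairs). Il6, interleukin-6, had 3102, 284 and 368 on ET-1 arrays, against 184, 106 and 220.0 on untreated arrays, and did not pass (adjusted p = 0.0887) although the groups did not overlap. Of 13 chemokines and their receptors, 2 rose and none fell, with a median of 0.67. Ccl2, a monocyte attractant, had 11547, 4903 and 4076 on ET-1 arrays, against 4299, 1533 and 2216 on untreated arrays. Its relative Ccl7 had 3677, 998 and 1415 on ET-1 arrays, against 1379, 303 and 780.5 on untreated arrays. Both differed by 1.33 on the log2 scale and were higher in all pairs, while untreated array 1 exceeded ET-1 array 3 for Ccl2 and ET-1 array 2 for Ccl7. Neither passed without replicate 2 (adjusted p = 0.141 for Ccl2 and 0.0813 for Ccl7), and 7 of the 13 passed without replicate 3. The median of the list was 1.14, 0.90 and 0.11 in pairs 1, 2 and 3. Of 12 NF-kB subunits, inhibitors and targets, Icam1, an adhesion molecule (0.86 ± 0.11), and Tnfaip2 (0.80 ± 0.13, SE, n = 3 pairs) rose and none fell. Microglia and macrophage markers, 8 tested of 13 with a probe set, held no gene that passed and summed to 2679, 4114 and 3518 on ET-1 arrays, against 2730, 3528 and 3192 on untreated arrays.

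Coagulation genes moved both ways. Of 11 measured, 3 rose and 1 fell, with a median of 0.08. F3, tissue factor, which starts the clotting cascade, had 2611, 590.4 and 638 on ET-1 arrays, against 627, 211 and 324 on untreated arrays (1.51 ± 0.22, SE, n = 3 pairs; adjusted p = 0.00426, and 0.0906 without replicate 2). It was higher in each pair. Thbd, thrombomodulin, the thrombin receptor that turns thrombin towards protein C activation, had 315, 307 and 219.8 on ET-1 arrays, against 835, 616 and 572 on untreated arrays. All ET-1 arrays lay below all untreated arrays (-1.26 ± 0.12, SE, n = 3 pairs; adjusted p = 0.000305), and it passed without each replicate number in turn. Plau, urokinase, rose by 1.05 ± 0.20 and Serpine2, protease nexin 1, by 0.87 ± 0.17 (SE, n = 3 pairs). Among 12 vasoactive peptides, enzymes and receptors 3 rose and none fell: Enpep, the aminopeptidase that trims angiotensin II (1.32 ± 0.28), Adm, the vasodilator adrenomedullin (0.91 ± 0.17), and Ramp1, a partner of the calcitonin-like receptor (0.59 ± 0.13, SE, n = 3 pairs).

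In the immediate early, MAPK feedback and Gq lists, 3 of 56 measured genes (5.36%) passed at 24 h, against 2.03% of all genes. Of 22 immediate early transcription factors and related genes, 2 rose and none fell, with a median of 0.33. A difference above 0 was seen in 20 of the 22. The list median was 0.56, 0.44 and 0.02 in pairs 1, 2 and 3. Egr1, a zinc finger factor, had 3644, 1912 and 1256 on ET-1 arrays, against 1822, 807 and 1121 on untreated arrays (0.80 ± 0.17, SE, n = 3 pairs; adjusted p = 0.0324, and 0.323 without replicate 2). Ier3 rose by 0.83 ± 0.18 (SE, n = 3 pairs). Fos, a subunit of AP-1, had 1483, 1454 and 1255 on ET-1 arrays and 1737, 1233 and 1227 on untreated arrays (adjusted p = 0.96). None of 15 MAPK feedback regulators passed, with differences from -0.18 to 0.27. Of 19 genes of Gq, phospholipase C and calcium signalling none rose and 1 fell, Plcg1, phospholipase C gamma 1 (-0.35 ± 0.06, SE, n = 3 pairs; adjusted p = 0.018). None of 11 measured growth factor genes and none of 16 hypoxia and glycolysis genes passed.

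The 18 genes that fell divided by size into 6 beyond -0.8 and 12 between -0.39 and -0.24. Among the 6, Inmt, which encodes indolethylamine N-methyltransferase, had 212, 286 and 382 on ET-1 arrays, against 1269, 939 and 654 on untreated arrays. The groups did not overlap (-1.69 ± 0.25, SE, n = 3 pairs; adjusted p = 0.005, and 0.124 without replicate 2). Crym, mu-crystallin, which binds thyroid hormone, had 441, 1105 and 1125 on ET-1 arrays, against 1193, 2219.8 and 2036 on untreated arrays. These did not overlap either (-1.10 ± 0.11, SE, n = 3 pairs; adjusted p = 0.000414). Cldn11, claudin 11, a tight junction protein of myelin, had 253, 144 and 146 on ET-1 arrays, against 453, 371 and 296 on untreated arrays (-1.07 ± 0.18, SE, n = 3 pairs; adjusted p = 0.0102). Thbd and Ogn are given above, and the sixth was Ube3al1 (-0.94 ± 0.19, SE, n = 3 pairs). The groups did not overlap in these genes except in Ogn. Thbd and Crym were the ones that kept their call in every alternative with the block that tested them.

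The 12 smaller decreases had mean signals from 783 to 2448 and none kept its call under all alternatives. Several are known neuronal genes. Eomes, also called Tbr2, a transcription factor of a subset of ganglion cells, had 1496, 1254 and 2098 on ET-1 arrays, against 1919, 1872 and 2441 on untreated arrays (-0.39 ± 0.09, SE, n = 3 pairs; adjusted p = 0.0419). Kcna2, a voltage-gated potassium channel of axons, fell by 0.33, Ank3, the ankyrin of the axon initial segment, by 0.33 and Bsn, bassoon, a scaffold of the presynaptic active zone, by 0.30 on the log2 scale. Bcl2l11, the pro-apoptotic protein BIM, had 1239, 1564 and 781 on ET-1 arrays, against 1599, 1866 and 992 on untreated arrays (-0.32 ± 0.06, SE, n = 3 pairs; adjusted p = 0.0195). The remaining 7 were Dlg5, Plcg1, Mocs2, Car10, Mindy2, Rab5b and Zdbf2. With replicate 2 left out, 2 of all 18 passed, and with replicate 1 left out, 3 did.

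Of 107 measured genes in the ganglion cell, axon, synapse, channel, receptor and transport motor lists, 3 (2.8%) passed, against 2.03% of all genes. Most differences in these lists lay slightly below 0, as did 54.4% of all genes. Of the 17 ganglion cell markers none rose and 1, Eomes, fell, with a median of -0.05. Sncg, gamma-synuclein, had 17673, 20372 and 27979.8 on ET-1 arrays, against 15347, 22769.7 and 26264 on untreated arrays (0.04 ± 0.08, SE, n = 3 pairs; adjusted p = 0.837). Slc17a6, the vesicular glutamate transporter of these cells, had 11604, 15594 and 14169 on ET-1 arrays, against 11819.6, 14406 and 14392 on untreated arrays (adjusted p = 0.862). None of 21 neurofilament and axonal growth genes passed (median -0.05, range -0.34 to 0.04), and 18 of the 21 lay below 0. So did 14 of 17 synaptic vesicle genes, 11 of 13 channels, 11 of 12 glutamate and GABA genes, 14 of 18 transport motors and 12 of 17 ganglion cell markers. Replicate pair 3 did not show this in every list. There, 13 of the 17 synaptic vesicle genes and 11 of the 21 neurofilament and axonal growth genes lay above 0. Below 0 in pair 3 were 9 of 13 channels, 11 of 12 glutamate and GABA genes, 10 of 18 motors and 9 of 17 ganglion cell markers. None passed among 15 axon guidance genes, 12 glutamate and GABA receptors and transporters (median -0.18), 18 axonal transport motors and 24 subunits of oxidative phosphorylation. Bsn was the 1 call among 17 synaptic vesicle genes and Kcna2 the 1 among 13 potassium and sodium channels. Of 16 apoptosis regulators Bcl2l11 alone passed. Fgfr2, a fibroblast growth factor receptor, was the 1 of 11 neurotrophic factor and receptor genes that passed, and it rose by 0.87 ± 0.14 (SE, n = 3 pairs).

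Of the highest 25 increases, the genes not yet given ranged from 1.24 to 1.58 in log2 difference. They were Hrct1, Rasl11b, Metrnl, Fxyd5, Sulf1, Sdc4, Emp1, Sphk1, Vgll3, Lmcd1, Pclaf and Jph2. Sphk1, sphingosine kinase 1, had 247, 351 and 168 on ET-1 arrays, against 84.8, 114 and 104 on untreated arrays, with no overlap (1.29 ± 0.19, SE, n = 3 pairs; adjusted p = 0.00501). Sdc4, the heparan sulfate proteoglycan syndecan 4, had 4701, 677 and 983 on ET-1 arrays, against 987, 313 and 666 on untreated arrays, higher in each pair with overlap (1.31 ± 0.27, SE, n = 3 pairs; adjusted p = 0.0291). Pclaf, a binding partner of the replication clamp PCNA, had 2047, 497 and 379 on ET-1 arrays, against 661, 248 and 175 on untreated arrays (1.25 ± 0.19, SE, n = 3 pairs; adjusted p = 0.00576). Of all 25, 4 passed without replicate 2, 14 without replicate 1 and 23 without replicate 3.

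ET-1 was then set against the mean of ET-2 and ET-3, given at the same dose and time, which asks where ET-1 differs from the other endothelins. The difference itself leaves out the untreated arrays. They still enter the shared estimate of spread behind the p-values and intervals. No probe set of 15521 passed (0%) in limma. The lowest adjusted p was 0.866, and 426 probe sets had an unadjusted p under 0.05, where 776 are expected if nothing differs. For Il1rl1 the difference was 0.40 (95% interval -0.17 to 0.98) and for Esm1 0.13 (-0.33 to 0.59). Among the 10 genes with the largest increase, the half-width of the interval ran from 0.34 (S100a6) to 0.80 (Ptgs1), so smaller differences between the peptides could not be resolved. The genes with the lowest unadjusted p were Fyb1 (0.50), Caskin1 (0.55) and Mon2 (0.43) on the higher side and Wiz (-0.77), Gem (-0.52) and Crtc2 (-0.59) on the lower side, and none passed.

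The comparisons of each endothelin with untreated share the 3 untreated arrays, so their values are given side by side only. Il1rl1 differed from untreated by 3.45 with ET-1, 3.04 with ET-2 and 3.06 with ET-3. Crym differed by -1.10 with ET-1, -1.11 with ET-2 and -0.84 with ET-3. Inmt differed by -1.69 with ET-1, -1.86 with ET-2 and -1.84 with ET-3. Of the 25 genes that rose most with ET-1, 21 passed with ET-2 and 24 with ET-3. Of the 18 that fell with ET-1, 11 passed with ET-2 and 11 with ET-3. Those 25 and 18 genes were chosen against the same untreated arrays, so these counts do not measure agreement between the peptides. The share of all genes that passed with ET-2 or ET-3 is not given here.

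**Figure D5:**
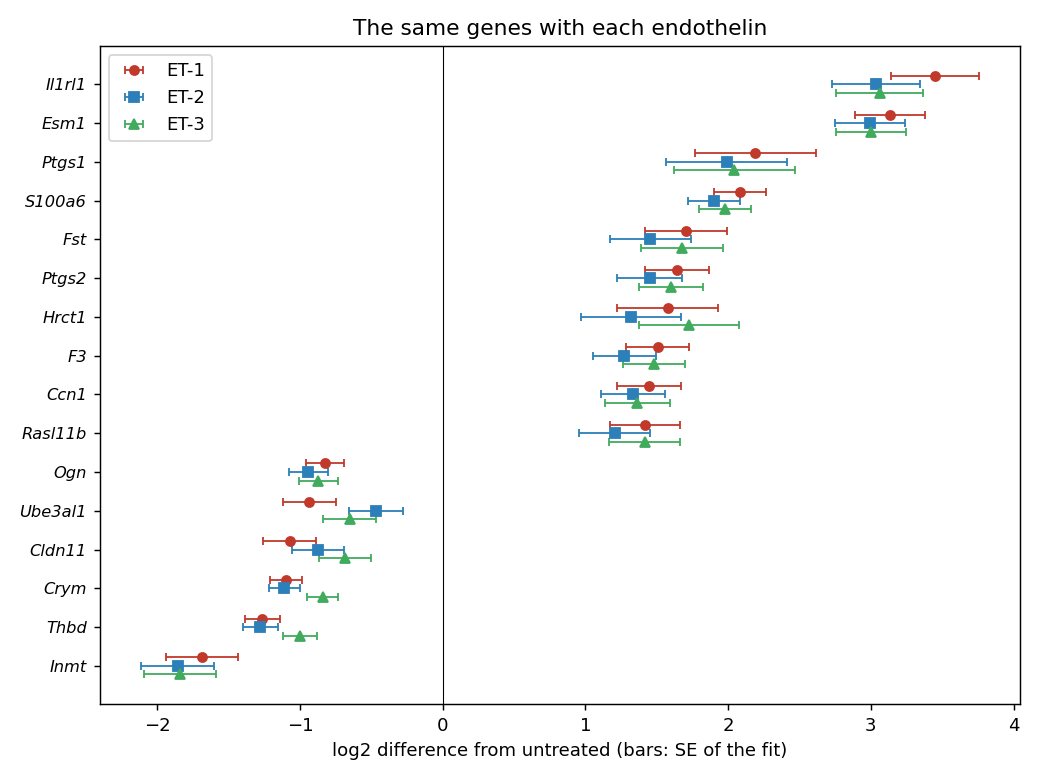
Log2 difference from untreated (horizontal axis) with ET-1, ET-2 and ET-3 for the 10 genes with the largest increases and the 6 with the largest decreases under ET-1, with bars of 1 SE of the fit (n = 3 arrays per group). The 3 peptides share the untreated arrays, and Il1rl1, for example, lies at 3.45 with ET-1, 3.04 with ET-2 and 3.06 with ET-3.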

How the data were processed

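The authors deposited a table of intensities, 31042 probe sets by 12 arrays. The submitters' processing notes name MAS5, with no version or settings. The deposited intensities appear scaled to a common trimmed mean. The annotation gives a single symbol to 20826 probe sets, several to 436 and none to 9780. Only the first kind was named; Entrez IDs of 20758 matched RefSeq and no symbol changed. The deposited values were taken as log2 with no pseudocount or further normalization. Tests covered the upper 15521 probe sets by mean log2 signal over the 12 arrays, treated and untreated, with the lower limit at a signal of 147.5. A gene was represented by its tested probe set with the highest mean.

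All 12 arrays entered limma 3.58.1 in R 4.3.3 (lmFit with 4 groups and the replicate number as a block, contrasts.fit, eBayes with an intensity trend; two-sided, Benjamini-Hochberg, threshold 0.05). The residual degrees of freedom were 6, and the median residual SD was 0.127. Deviations from group means correlated between arrays of the same number at r from 0.684 to 0.912 over 18 pairs and between different numbers in different groups at r from -0.706 to -0.056, so the numbers pair the arrays; this rests on the values, since the labels do not say what a number marks. The labels call the samples biological replicates without naming separate animals or cultures. The p-values rest on the spread left among these samples after the replicate block, pooled over the 4 groups. Differences between replicate numbers that all groups share are not part of it. The number of arrays limits the precision.

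Named were the 25 higher and up to 25 lower genes with the largest difference among those past the threshold and moving the same way in 3 pairs; up to 5 called members per gene list; endothelin system genes; up to 4 markers per cell type by signal; and the 3 lowest p in each direction for ET-1 against the other endothelins. Other genes of the lists and the genes Tead1, Piezo1 and Aspn were named after their values were seen. The members and lists, 39 of pathways and 11 of cell types, were chosen with earlier results of these data known. Of 946 list genes 854 had a named probe set and 615 were tested. Alternatives changed the block, arrays, filter, scaling, pseudocount, variance model, replicates or probe set. The endothelin receptor genes were not analysed here.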

Additional observations from a re-analysis of the deposited data

Results flagged for a closer look

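Of the 268 probe sets past the threshold, 43 have no single gene symbol in the annotation, 34 of them higher and 9 lower with ET-1, and they enter no gene count above. They are 1.29% of the 3328 tested probe sets without a single symbol, against 1.73% over all tested probe sets. The largest increase among the examples was probe set 1368519_at, with 4724, 2028 and 470.4 on ET-1 arrays, against 232, 246 and 162 on untreated arrays (log2 difference 2.98 ± 0.47, SE, n = 3 pairs; adjusted p = 0.00632 in limma). Probe set 1392264_s_at had 972, 211 and 259 on ET-1 arrays, against 126, 38.3 and 45.8 on untreated arrays (2.64 ± 0.27; adjusted p = 0.000472 in limma). On the lower side, probe set 1379052_at had 192, 166 and 106 on ET-1 arrays, against 247, 308 and 172 on untreated arrays (-0.65 ± 0.15; adjusted p = 0.0447 in limma). Probe set 1384310_at had 517, 322 and 233 on ET-1 arrays, against 904, 449 and 321 on untreated arrays (-0.58 ± 0.12; adjusted p = 0.034 in limma). No gene name is given to these probe sets here.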

How the results depend on the processing

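With no replicate block, 0 probe sets passed for ET-1 against untreated, so the paired design decides the count, and 0 of the list members did. The 268 probe sets became 78 with the ET-1 and untreated arrays alone and 123 without an intensity trend. Leaving out a replicate number or 1 array gave 23 to 575. Among list members the count was 35 with these 6 arrays alone and 38 without the trend, and 11 to 138 with a replicate left out. The low values came without replicate 2 (23 and 11), and the high values without untreated array 3 (575 and 138). Without replicate 1 the values were 95 and 43, without ET-1 array 1 they were 114 and 41, without ET-1 array 2 they were 73 and 30, without ET-1 array 3 the first was 144, and without untreated array 1 it was 171. The count was 183 with no filter, 218 with a stricter filter, 183 with median centring, 246 with quantile normalization and 253 with a pseudocount of 32. For ET-1 against the mean of ET-2 and ET-3 the count was 0 under every alternative that could be fitted; the 6 arrays alone hold no ET-2 or ET-3 array and gave no value. Of the 91 called genes that the naming rule chose, 12 kept their call in every alternative with the block that tested them, of 16. Cnn2, outside the rule, did too. Thbd, among the 12, was not tested with the stricter filter. In other tested probe sets of called genes, 42 of 46 had the same direction and none was called in the opposite one; the value that turned sign among named genes was Rab5b, at 0.0745 on its other probe set. Detection calls were not used, so a low signal was not told from background.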

Other observations

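Differences of proliferation genes were largest in replicate pair 1. Of 20 measured cyclin and mitosis genes, 2 rose and none fell, Ccnb2 (1.15 ± 0.26) and Ccnd1 (0.84 ± 0.17, SE, n = 3 pairs), and the list median was 0.85. In replicate pairs 1, 2 and 3 that median was 1.71, 0.35 and 0.09. Ccnb2, cyclin B2, had 885, 233 and 265 on ET-1 arrays, against 219.6, 129 and 176 on untreated arrays. Of 17 DNA replication genes, Mcm3 (0.80), a subunit of the replicative helicase, and Tk1 (0.73), thymidine kinase, rose and none fell. Replicate 1 is also where the fibroblast markers were highest in both groups, and the part of those cells in these values was not tested.

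Of 14 heat shock genes 2 rose and none fell. Cryab, the small chaperone alpha B-crystallin, had 466, 1558 and 2236 on ET-1 arrays, against 244, 559 and 1537 on untreated arrays (0.99 ± 0.14, SE, n = 3 pairs; adjusted p = 0.00387 in limma), and Hspb1 rose by 0.88 ± 0.17. Nqo1 (0.72) and Gpx1 (0.30), antioxidant enzymes, rose among 19 genes of that list. Msmo1 (0.56) was the 1 call among 16 cholesterol genes and Pdia6 (0.28) the 1 among 24 genes of endoplasmic reticulum stress. Over all genes 2.03% passed, and a single call in a list of this size is not read as a result about the list. None of 10 interferon response genes and 7 complement genes passed. Tead1, a TEAD transcription factor, rose by 0.49 ± 0.08 and Piezo1, a mechanosensitive channel, by 0.70 ± 0.12 (SE, n = 3 pairs). Aspn, asporin, a relative of Ogn, lay under the signal filter, at 107, 66.5 and 20.5 on ET-1 arrays and 625, 249 and 21.7 on untreated arrays, and was not tested.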
